A study of Mus musculus with 61 samples.

Results

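Ghrelin (Ghrl) and its acylating enzyme, ghrelin O-acyltransferase (Mboat4), were followed across all conditions of the series. The members were taken by gene symbol, 2 of the 46078 genes in the count table, and the rule that picks them uses no measured value. Both were above the limits for testing. The data were RNA sequencing counts from 61 libraries, each made from a pool of 50 sorted cells of C57BL/6 mouse pancreatic ductal organoids, which are duct cells grown as hollow spheres in a gel. All cultures received separate lentiviral vectors, namely GFP-Ngn3, LSS-Orange-Pdx1 and tdTomato-MafA together with a doxycycline-dependent transactivator, and 8 days of doxycycline. Cultures carried either wild-type Ngn3 (WT) or a phospho-mutant in which serines targeted by Cdks were changed to alanine (6SA). From each kind of culture, cells were sorted by colour for Pdx1, for MafA or for both, each with or without Ngn3, which gave 12 conditions. Cells with Ngn3, Pdx1 and MafA are called 3 factors here. The colours report that a vector is expressed, and the amount of each factor can differ between the cells of a pool. Cells sorted without Ngn3 came from the same infected and treated cultures, and uninfected cells and cells with Ngn3 alone were not analysed here. Replicates 1 and 2 used passage 2 organoids and replicate 3 used passage 5 organoids, so passage and replicate number cannot be told apart.

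Ghrelin is a peptide hormone of the stomach that stimulates appetite and growth hormone release. In the embryonic pancreas it marks epsilon cells, an endocrine type that becomes rare in the adult islet. The precursor is cut by prohormone convertase 1 (Pcsk1), and Mboat4, an enzyme of the endoplasmic reticulum membrane, attaches octanoate to a serine near the start of the mature peptide. Without this fatty acid ghrelin does not activate its classical receptor, Ghsr, so a cell needs both genes to make the active hormone.

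Ghrl (ENSMUSG00000064177) lies on chromosome 6 of GRCm38 at chr6:113716119-113719880, minus strand, and Mboat4 (ENSMUSG00000071113) on chromosome 8 at chr8:34115030-34125182, plus strand. The sequences that tie the pair together are the acylated residue of the hormone and the active site of the enzyme. The 1st line below holds the 108 coding bases of exon 2 of the Ghrl transcript (chr6:113719322-113719429), with codon 26 in capitals, the serine that Mboat4 acylates. The 2nd line holds 63 coding bases from exon 3 of Mboat4 (chr8:34124392-34124454), with the codon of the active-site histidine in capitals.
Ghrl coding bases: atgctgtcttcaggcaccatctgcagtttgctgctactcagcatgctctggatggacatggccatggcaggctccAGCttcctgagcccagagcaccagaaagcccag
Mboat4 coding bases: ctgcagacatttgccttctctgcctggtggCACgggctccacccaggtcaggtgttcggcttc

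Ngn3 is a basic helix-loop-helix factor, a class that binds E-boxes, so the bases before a Ghrl start site are shown as well. They are 1 of 4 RefSeq windows of Ghrl, and the others are not shown. These 250 bases (RefSeq, GRCm38.p6, chr6:113719912-113720161, minus strand) held 3 matches to the letters CANNTG, printed in capitals. This motif reads the same on both strands. Of 32817 mouse promoter windows of this length, 66.2% held at least 1 match and 12.2% held 3 or more.
Ghrl promoter: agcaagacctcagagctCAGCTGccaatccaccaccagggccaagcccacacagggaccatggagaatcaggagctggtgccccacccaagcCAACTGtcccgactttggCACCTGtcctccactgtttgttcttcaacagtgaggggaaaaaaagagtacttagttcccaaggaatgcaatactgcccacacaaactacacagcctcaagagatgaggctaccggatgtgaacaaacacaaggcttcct

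After 3 libraries with 241563 to 625650 counts on genes were left out, 58 libraries remained, and their technical repeats were summed to 32 samples with 2579583 to 19461008 counts. Neurog3, the gene that encodes Ngn3, had 7.87 to 329 CPM in the 17 samples sorted for it and 0 to 0.787 CPM in the 15 others (CPM, counts per 1000000 counts on genes, after TMM scaling of library sizes). These counts cannot separate transcripts of a vector from those of the cell's own gene. Mafa was low throughout. It had at most 1 count in each of the 10 samples sorted without MafA, and 0 to 12.7 CPM (median 1.45) in the 22 sorted for it, of which 5 had at most 3 counts, so these counts do not check the MafA label in every sample. Pdx1 had 9.84 to 191 CPM in the 21 samples sorted for it and 3.21 to 30.6 CPM in the 11 others, ranges that overlap. Duct markers, 8 genes, summed to 11355 to 57350 CPM without Ngn3 and to 1434 to 16827 CPM with it. Of 10 acinar markers, 5 had at most 3 counts in every sample without Ngn3. In a given sample 3 counts were worth 0.136 to 1.01 CPM, a limit for counting error only. In pools, fewer cells of a type and less RNA per cell cannot be told apart. Nothing in the labels says that replicates came from separate mice, so p-values measure the spread between these cultures.

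Ghrl was close to undetected without Ngn3 and was among the most abundant transcripts of many samples with it. In WT cells with Ngn3 and Pdx1 it had 221, 952 and 2551 CPM in replicates 1, 2 and 3. In WT cells with Ngn3 and MafA it had 2383, 2481 and 1168 CPM. In WT cells with the 3 factors it had 752, 10.8 and 3053 CPM. These 3 WT conditions overlapped, and replicate 2 of the 3 factors stood far below the other samples with Ngn3, on 74 counts. With the phospho-mutant, Ghrl was at 2558, 2466 and 562 CPM beside Pdx1. It was at 1406, 4933 and 597 CPM beside MafA. The 3 factors, for which 2 samples were left, had 481 and 97.8 CPM. Both of those lay below each other 6SA sample with Ngn3.

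Without Ngn3, Ghrl had few counts but was rarely at 0. In WT cultures it had 17 and 0 counts with Pdx1, 9 and 0 with MafA, and 10, 4 and 12 with Pdx1 and MafA. In 6SA cultures it had 31 and 5 counts with Pdx1, 22, 5 and 2 with MafA, and 38, 14 and 7 with Pdx1 and MafA. These counts gave 0 to 2.24 CPM, and all 15 samples lay below the lowest sample with Ngn3. Each of the 29 kept libraries with Ngn3 also lay above each of the 29 without it.

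Mboat4 was scarcer than Ghrl and followed the same division. In WT cells it had 144, 8 and 34 counts with Ngn3 and Pdx1, which was 9.98, 2.70 and 5.58 CPM. With Ngn3 and MafA it had 443, 476 and 11 counts, or 35.7, 62.1 and 1.66 CPM. The 3 factors had 58, 5 and 45 counts, or 4.70, 0.731 and 5.98 CPM. The highest WT values were those of replicates 1 and 2 with MafA, while replicate 3 of the same condition lay below all WT samples with Ngn3 and Pdx1 alone. With the phospho-mutant, Mboat4 was at 51.0, 16.97 and 7.16 CPM beside Pdx1. It was at 33.1, 47.1 and 2.14 CPM beside MafA. It was at 0.339 and 2.08 CPM with the 3 factors, on 5 and 24 counts. These last 2 samples lay below all other 6SA samples with Ngn3. Of the 15 samples without Ngn3, 13 had 0 counts of Mboat4, 1 had 2 counts (WT, Pdx1, replicate 1) and 1 had 1 count (6SA, MafA, replicate 1). At their depths a count of 0 allows a level of up to 0.168 to 0.925 CPM. By library, 27 of the 29 kept libraries with Ngn3 lay above each kept library without it for Mboat4, and 2 had 0 counts. How many of all genes separate the samples in this way was not counted.

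**Figure D1:**
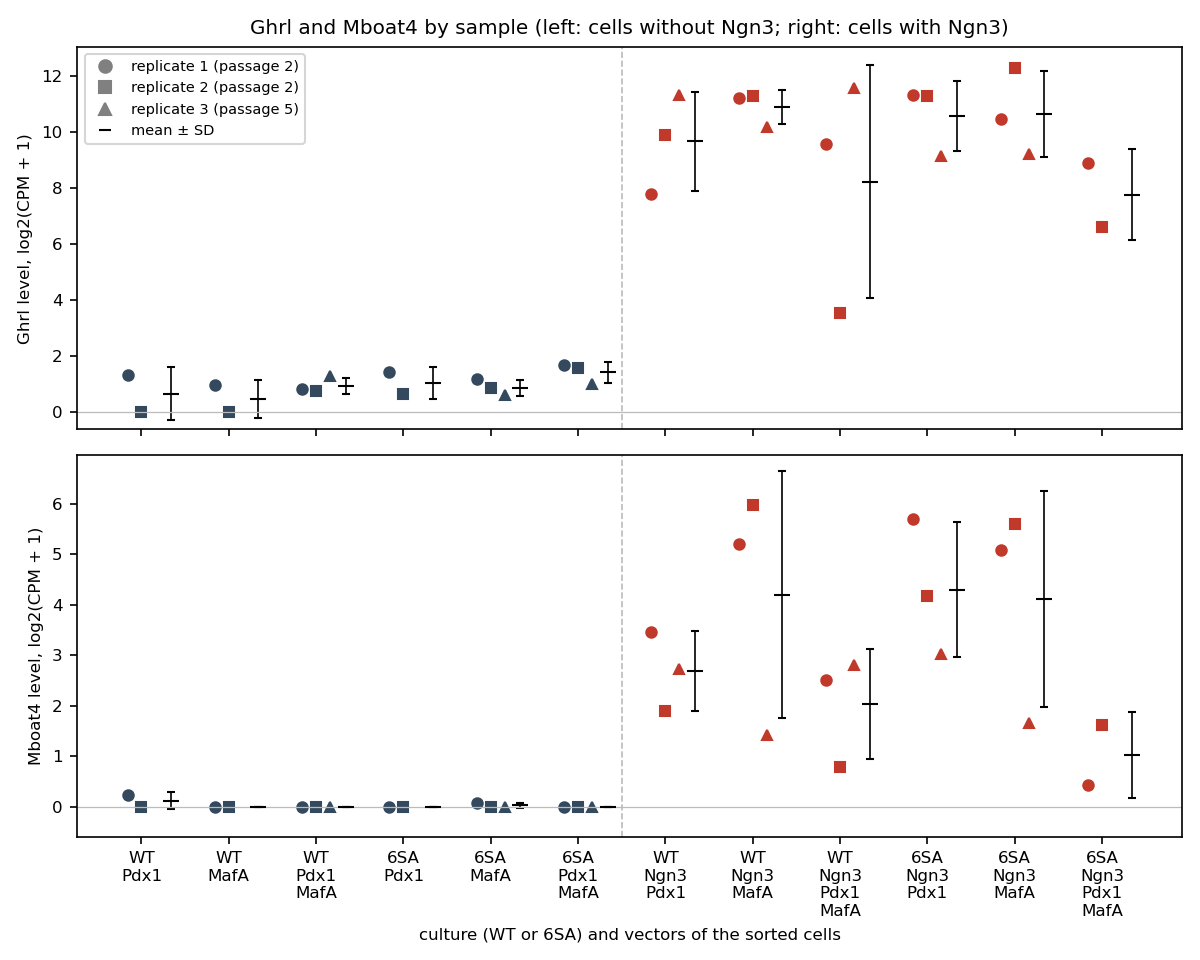
Levels of Ghrl (top) and Mboat4 (bottom) as log2(CPM + 1) in each of the 32 samples, by condition, with replicates as symbols and the mean ± SD on this scale beside them (2 or 3 samples each). All 17 samples with Ngn3 (red) lie above all 15 without it (dark) for both genes, and replicate 2 of WT cells with the 3 factors is the lowest red point for Ghrl.

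Ordered by mean level, Ghrl was highest in 6SA cells with Ngn3 and MafA (2312 ± 2306 CPM, SD, n = 3). WT cells with Ngn3 and MafA followed (2011 ± 731 CPM, n = 3), then 6SA cells with Ngn3 and Pdx1 (1862 ± 1127 CPM, n = 3). The 3 factors in WT cells (1272 ± 1586 CPM, n = 3) and Ngn3 with Pdx1 in WT cells (1241 ± 1192 CPM, n = 3) came next, and the 3 factors in 6SA cells were last (289 ± 271 CPM, n = 2). Each neighbouring pair in this order overlapped, and the only gap was between the last of these and the conditions without Ngn3, which had means of 0.482 to 1.75 CPM. For Mboat4 the order began with Ngn3 and MafA in WT (33.2 ± 30.3 CPM) and 6SA cells (27.5 ± 23.0 CPM, n = 3 each). It went on with Ngn3 and Pdx1 in 6SA (25.03 ± 23.0 CPM) and WT cells (6.08 ± 3.67 CPM, n = 3 each), and ended with the 3 factors in WT (3.804 ± 2.74 CPM, n = 3) and 6SA cells (1.21 ± 1.23 CPM, n = 2). Its neighbouring conditions with Ngn3 overlapped as well, and the last of them lay above all conditions without Ngn3.

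Compared per kilobase of merged exons, Ghrl ranked between 6th and 4636th of 45143 genes with a known length in samples with Ngn3 (median rank 16) and between 10549th and 16230th without it. It took up to 0.537% of all counts on genes, in 6SA cells with Ngn3 and MafA, replicate 2. Mboat4 ranked between 1693rd and 17846th with Ngn3 (median rank 8985). The ratio of counts was 14.8 to 1417 Ghrl counts for each Mboat4 count, with a median of 105. Both extremes were samples with the 3 factors and 5 Mboat4 counts each.

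Among 17 hormone genes, Ghrl was the most abundant per kilobase in 5 of the 17 samples with Ngn3, and somatostatin (Sst) in 10. Galanin (Gal), a neuropeptide, led in the other 2. The median level was 1083 CPM per kb for Ghrl and 8027 CPM per kb for Sst. Of the 5 samples led by Ghrl, 4 were cells with Ngn3 and MafA, namely replicate 3 of 6SA cells, with Sst at 8.90 CPM per kb, and all 3 WT replicates. In those Sst had 1874, 8.50 and 6.29 CPM per kb in replicates 1, 2 and 3. The 5th was replicate 3 of WT cells with Ngn3 and Pdx1, with 2364 CPM per kb of Ghrl and 26.4 CPM per kb of Sst. In the samples with the 3 factors Ghrl was never first, and its place among the hormones ran from 2nd to 8th. Amylin (Iapp), at a median of 402 CPM per kb, was the next hormone gene after Ghrl.

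**Figure D2:**
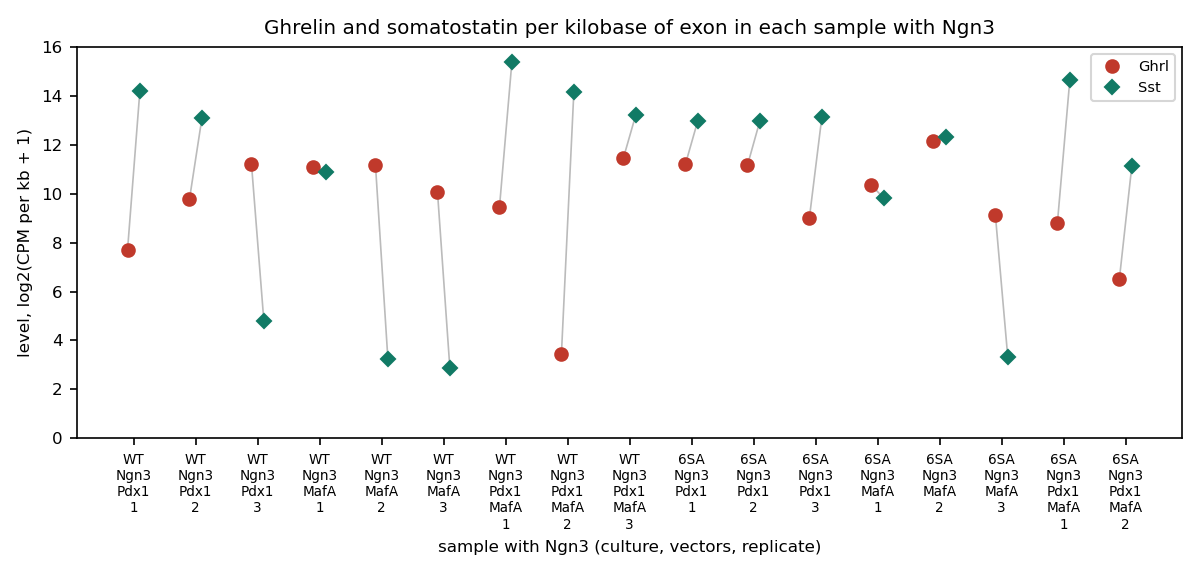
Levels of Ghrl (circles) and Sst (diamonds) as log2(CPM per kb + 1) in each of the 17 samples with Ngn3, joined by a line. Sst spans 6.29 to 42584 CPM per kb, and Ghrl lies above it in 6 samples, 5 of them with Ngn3 and MafA.

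Ghrl was higher with Ngn3 beside every partner and in both kinds of culture. Over the 6 pairs of conditions Ghrl differed by 10.24 on the log2 scale (SE 0.74), with an adjusted p of 7.66e-11 by edgeR's quasi-likelihood test. This comparison called 21.5% of the 24004 genes tested, 11.1% as higher and 10.5% as lower. By means, the fold over the matching condition without Ngn3 was 1620 for WT Pdx1, 4171 for WT MafA and 1312 for WT Pdx1 with MafA. In 6SA cultures it was 1620 for Pdx1, 2663 for MafA and 165 for Pdx1 with MafA. The references of WT Pdx1 and WT MafA each held a sample with 0 counts, with means of 0.766 and 0.482 CPM. The WT MafA mean lay below its level of 3 counts (0.623 CPM), so the size of that fold is uncertain. The 6 single effects were each past the threshold (edgeR adjusted p between 0.000157 and 0.00926). Few genes were called as higher in these single comparisons, 0.108% with Pdx1, 0.308% with MafA and 2.48% with both in WT cultures, and 0.367%, 1.17% and 3.29% in 6SA cultures.

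Mboat4 also rose with Ngn3 over the 6 pairs, by 8.63 on the log2 scale (SE 0.84, edgeR adjusted p = 1.21e-07), a size that depends on how counts of 0 enter the model. Against the level of 3 counts, its mean was at least 11.0-fold higher with WT Ngn3 and Pdx1, at least 53.2-fold with MafA and at least 10.2-fold with both. With the phospho-mutant it was at least 99.1-fold, 56.8-fold and 3.50-fold higher in the same order. Of the 6 single effects 4 passed the threshold (edgeR adjusted p = 0.00541 to 0.035). WT Ngn3 beside Pdx1 (adjusted p = 0.567) and 6SA Ngn3 beside Pdx1 with MafA (adjusted p = 0.0522) did not, although measured values overlapped in neither pair. In the 6SA pair the lower sample with Ngn3, at 0.339 CPM, lay below the 3-count limits of reference replicates 2 and 3 (0.433 and 0.429 CPM). An overlap of true levels is therefore possible there.

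Between partners of Ngn3, 1 difference passed the threshold, that of Mboat4 between the 3 factors and Ngn3 with MafA. Averaged over WT and 6SA cells, Mboat4 fell by 3.81 on the log2 scale with the 3 factors (SE 0.96, edgeR adjusted p = 0.0348), where 2.72% of genes were called and 1.56% as lower. The samples of the 2 groups overlapped, since both replicate 3 samples with Ngn3 and MafA, at 1.66 and 2.14 CPM, were within the range of the 3 factors (0.339 to 5.98 CPM). Paired by number, Mboat4 was lower with the 3 factors in replicates 1 and 2 of both forms. It was higher in WT replicate 3 (5.98 against 1.66 CPM), the only kept pair from passage 5. The call was lost without replicate 1 (log2 fold change -3.40, adjusted p = 0.0914), without replicate 2 (-3.74, adjusted p = 0.482) and with the first technical repeat alone (-4.05, adjusted p = 0.0523). In the same comparison Ghrl had a log2 fold change of -1.83 (95% interval -3.47 to -0.19, edgeR adjusted p = 0.211). It was -0.58 when the 3 shallow libraries were kept and -0.48 without replicate 2. Of the alternatives 2 passed for Ghrl, without replicate 3 (-3.13, edgeR adjusted p = 0.0396) and with no gene filter (-1.87, edgeR adjusted p = 3.8e-06). Duct markers summed to 1434 to 2777 CPM with the 3 factors and 2634 to 6151 CPM with Ngn3 and MafA, and delta-cell markers to 1908 to 31850 and 55.0 to 3904 CPM. Their part in the result was not tested.

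Against Ngn3 with Pdx1, the 3 factors gave log2 fold changes of -1.33 for Ghrl (95% interval -2.93 to 0.28, edgeR adjusted p = 0.44) and -2.53 for Mboat4 (-4.39 to -0.68, adjusted p = 0.165). Here 1.88% of genes were called. With the 3 shallow libraries kept, Ghrl differed by -0.07. Ngn3 with MafA against Ngn3 with Pdx1 gave 0.50 for Ghrl (-0.96 to 1.97, adjusted p = 1.00) and 1.28 for Mboat4 (-0.32 to 2.88, adjusted p = 0.719), with 0.133% of genes called. These 3 comparisons share samples. Split by Ngn3 form, the 3 factors against Ngn3 with Pdx1 gave 0.04 in WT and -2.69 in 6SA cells for Ghrl, and -0.69 and -4.37 for Mboat4. Between the forms these effects differed by -2.72 for Ghrl and -3.68 for Mboat4, and by edgeR both adjusted p-values were 1.00, with 0% of genes called.

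**Figure D3:**
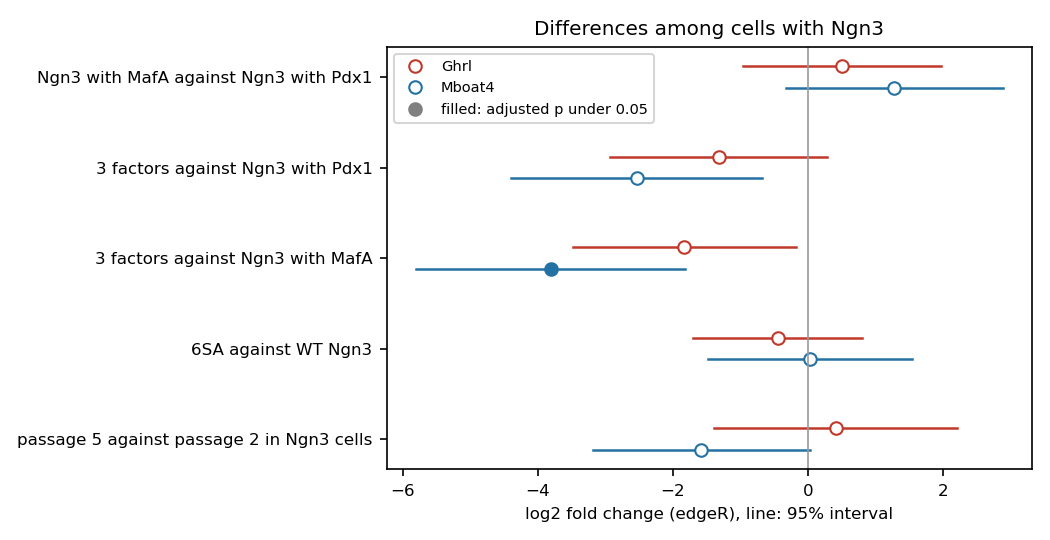
Log2 fold changes of Ghrl (red) and Mboat4 (blue) between groups of samples with Ngn3, from the edgeR model, with 95% intervals. The filled point marks the only adjusted p under 0.05, that of Mboat4 with the 3 factors against Ngn3 with MafA (-3.81).

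The phospho-mutant was compared with wild-type Ngn3 because the series asked whether phosphorylation limits reprogramming. Over the 3 combinations the log2 fold change of 6SA against WT was -0.45 for Ghrl (95% interval -1.70 to 0.80) and 0.03 for Mboat4 (-1.48 to 1.54), with edgeR adjusted p = 1.00 for each and 0% of genes called. These intervals leave room for changes in either direction. Within combinations, Ghrl differed by 0.59 beside Pdx1, 0.20 beside MafA and -2.14 with both (adjusted p of 0.942 or more). Mboat4 differed by 2.02, -0.27 and -1.66 in the same order (adjusted p of 0.942 or more). The effect of Ngn3 on Ghrl was 10.75 in WT and 9.72 in 6SA cultures on the log2 scale, a difference of -1.04 (95% interval -3.16 to 1.08, edgeR adjusted p = 1.00) that became -4.73 without replicate 1. For Mboat4 this interaction gave no usable test, because the conditions without Ngn3 were at or near 0.

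Passage 5 samples with Ngn3 had 562 to 3053 CPM of Ghrl (median 1168, n = 5) and passage 2 samples 10.8 to 4933 CPM (median 1179, n = 12). The log2 fold change within conditions was 0.40 (95% interval -1.39 to 2.20, edgeR adjusted p = 0.829). Mboat4 had 1.66 to 7.16 CPM at passage 5 and 0.339 to 62.1 CPM at passage 2, with a log2 fold change of -1.58 (-3.18 to 0.02, adjusted p = 0.245). It passed the threshold without replicate 2 (-2.30, adjusted p = 0.0139) and with no gene filter (-1.60, adjusted p = 0.0265). The 5 passage 5 samples are all replicate 3. In this comparison 5.97% of genes were called, 4.22% as lower at passage 5. Those included 4 of 7 genes that mature ghrelin, Pcsk1 among them, and 7 of 12 transcription factors tied to ghrelin cells. None of 5 epsilon-cell markers was called, with a median log2 fold change of -1.18 against -0.22 over all genes. Whether the lists differ was not tested.

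Technical repeats of 1 sample could differ widely in Ghrl. Each repeat is a library of its own, given here in CPM of its total counts. In replicate 1 of WT cells with the 3 factors the repeats had 1815, 1696 and 4.21 CPM, which were 3536, 5724 and 25 counts. The 3rd repeat was the deepest of these libraries, with 5931521 counts on genes, and its Neurog3 level of 252 CPM was above those of the other two, 150 and 188 CPM. It had 49 counts of Mboat4 against 5 and 4, and was the only one of the 29 libraries with Ngn3 to hold more Mboat4 than Ghrl counts. In replicate 1 of WT cells with Ngn3 and Pdx1 the repeats had 510 and 46.3 CPM of Ghrl but 11.0 and 11.7 CPM of Mboat4. In replicate 1 of 6SA cells with the 3 factors they had 51.9, 1192 and 428 CPM of Ghrl, with Mboat4 at 0, 5 and 0 counts. In replicate 2 of 6SA cells with Ngn3 and MafA they had 3215 and 16819 CPM of Ghrl while Mboat4 went the other way, 56.9 and 22.1 CPM. In 6SA cells with Ngn3 and Pdx1 both genes were ordered alike, with 1218, 3511 and 4240 CPM of Ghrl and 28.5, 71.5 and 78.1 CPM of Mboat4 in replicate 1. The pair was thus ordered alike between the repeats of some samples and not of others.

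Over the 8 samples with Ngn3 and at least 2 repeats, the highest repeat of Ghrl was 1.25 to 431 times the lowest. For Mboat4 this ratio was 1.06 to 6.97 in the 7 samples with counts in each repeat. The pooled SD between repeats, on the log2(CPM + 1) scale, was 2.45 for Ghrl and 0.79 for Mboat4, against a median of 0.49 for the 2043 tested genes with at least 100 CPM on average in these samples. Of those genes 2 spread more than Ghrl, Gip, an incretin hormone, and Slc38a5, an amino acid transporter, named after their values were seen. The size of the Ghrl value rested on the repeat at 4.21 CPM, without which the SD was 1.501 for Ghrl, 0.71 for Mboat4 and 0.46 for the median gene, and 14 genes spread more than Ghrl. Between replicates of a condition the SD was 2.18 for Ghrl, 1.62 for Mboat4 and 0.53 for the median gene. With all kept libraries the repeats of Ghrl thus spread more than its replicates, and those of Mboat4 less. The SD between replicates was not taken again without the repeat at 4.21 CPM, so the 2 kinds of spread cannot be compared without it. Replicates are also sums of repeats and cover more samples. Whether a repeat was another pool of cells or another library from the same lysate is not given in the sources used here.

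**Figure D4:**
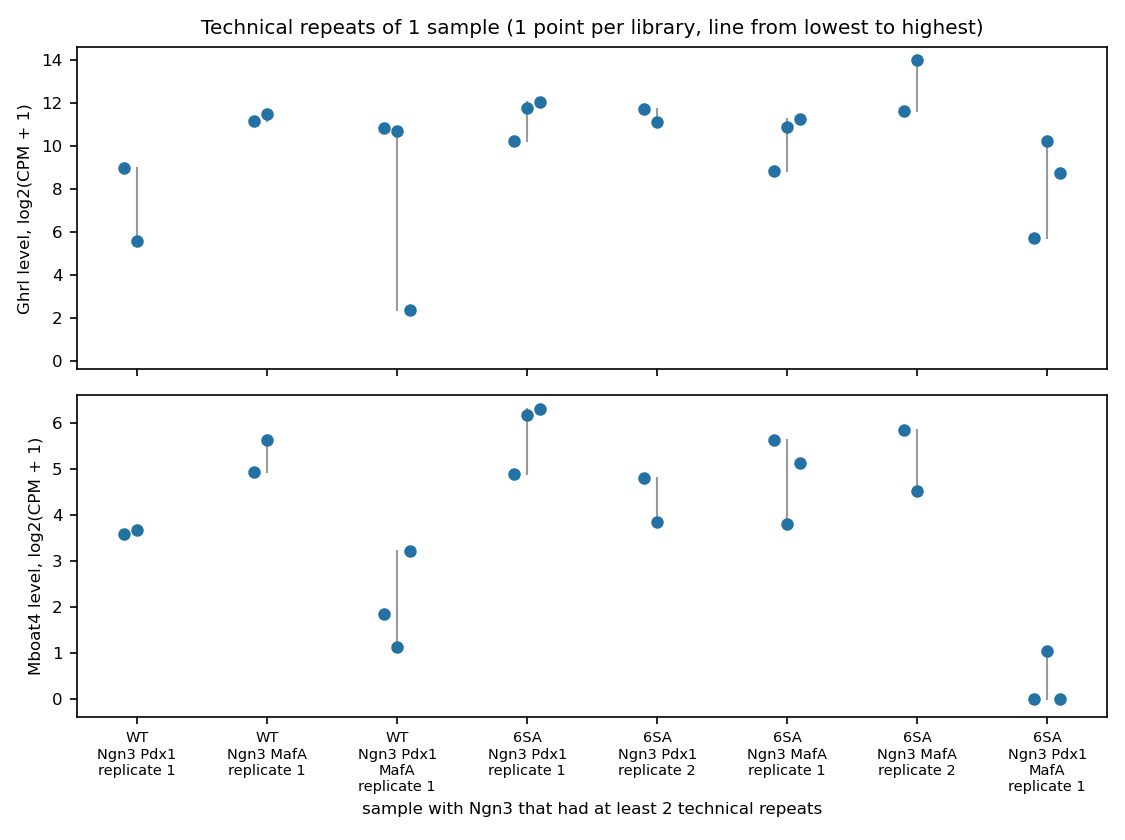
Levels of Ghrl (top) and Mboat4 (bottom) as log2(CPM + 1) in each technical repeat of the 8 samples with Ngn3 that had at least 2, with a line from the lowest to the highest. In replicate 1 of WT cells with the 3 factors Ghrl is at 4.21 CPM in one repeat and at 1696 and 1815 CPM in the others.

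Across the 17 samples with Ngn3, Ghrl and Mboat4 were higher together. On log2(CPM + 1), Pearson's r was 0.64 (permutation p = 0.00342, Benjamini-Hochberg adjusted p = 0.00855 over 5 sets of samples) and Spearman's rho was 0.67 (permutation p = 0.004, adjusted p = 0.00761), two-sided. Without the 2 samples farthest from the median of Ghrl, both from replicate 2 of the 3 factors, r was 0.59 (permutation p = 0.0213). In 6SA samples r was 0.81 (n = 8, exact permutation p = 0.0144, adjusted p = 0.0239) and in WT samples 0.55 (n = 9, exact permutation p = 0.128, adjusted p = 0.128). Among the 12 passage 2 samples r was 0.77 (permutation p = 0.00173, adjusted p = 0.00855), and no correlation was taken over the 5 passage 5 samples alone. Among the 12 samples with Ngn3 and a single partner r was 0.57 (permutation p = 0.0498, adjusted p = 0.0622). After the mean of each condition was taken out r was 0.45 (permutation p = 0.0695), and without replicate 2 it was 0.45 (permutation p = 0.167), so neither passed. Between technical repeats of the same sample r was -0.38 over 20 libraries, given as a description. Samples sorted from 1 culture share that culture and are not independent.

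**Figure D5:**
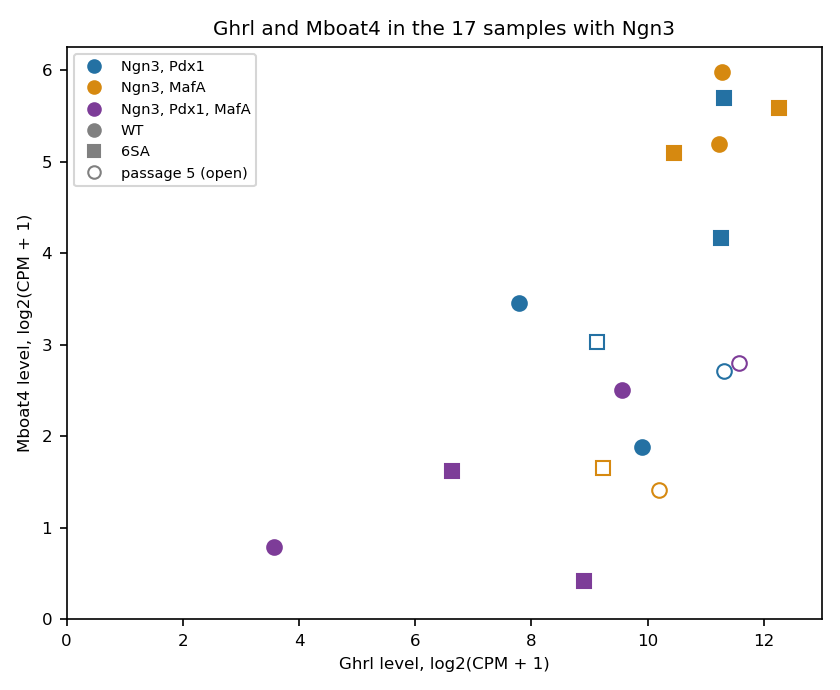
Mboat4 against Ghrl, both as log2(CPM + 1), in the 17 samples with Ngn3, coloured by partner, with circles for WT, squares for 6SA and open symbols for passage 5. The points rise together (r = 0.64), and the 2 samples with the least Ghrl, at 10.8 and 97.8 CPM, both hold the 3 factors.

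Of 11712 genes with at least 5 CPM on average, the 10 whose levels followed Ghrl most closely over these 17 samples had r between 0.79 and 0.81, where the median gene had 0.02. Those with a symbol were Angptl4, Tnnt2, F2r, Zc3h12a, Fbln2, Axl, 2610307P16Rik, Trmt61a and Mtus1. None of the 10 was among the top 10 by rho, while 6 were by deviations from condition means. For Mboat4 the top 10 had r between 0.79 and 0.85 (median gene 0.06), and 9 of them were also in its top 10 by rho but 0 by deviations from condition means. They were Gpr119, a receptor for fatty acid derivatives, Lima1, Pik3c2b, Traf2, Epas1, 1700017B05Rik, Cdh13, Mtmr11, P4ha2 and Aldh1l1. By this measure Mboat4 was 267th for Ghrl and Ghrl was 217th for Mboat4. Neurog3 itself had r = -0.40 with Ghrl and 0.12 with Mboat4.

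The genes that mature the ghrelin precursor were described by a list of 7, all tested, of which 5 rose with Ngn3 and none fell (median log2 fold change 6.52, against 0.07 over all genes tested). The shares over all genes were 11.1% higher and 10.5% lower. Pcsk1, the convertase that cuts the precursor, had 43.0 to 590 CPM with Ngn3 and 0 to 2.18 CPM without it (log2 fold change 8.85, edgeR adjusted p = 7.07e-12). Pcsk2, a related convertase, had 25.5 to 1162 CPM with Ngn3 (log2 fold change 10.04). Carboxypeptidase E (Cpe), which trims the ends left by these enzymes, had 359 to 7805 CPM with Ngn3 and 16.8 to 105 CPM without it. Pcsk1n, a precursor of Pcsk1 inhibitors, had 4.57 to 151 CPM with Ngn3 and at most 0.279 CPM without it. Furin and Cpd, which act in most cells, did not pass the threshold. Unlike Mboat4, Pcsk1 had no difference past the threshold between the 3 factors and Ngn3 with MafA (-0.35, adjusted p = 0.849), although whether the genes differ in this was not tested.

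Ghsr, the ghrelin receptor, had 0 counts in all 15 samples without Ngn3 and in 13 of 17 with it, and at most 4 counts in the rest. Its accessory protein Mrap2 had 0 to 9.51 CPM with Ngn3 and 0 to 1.15 CPM without it (edgeR adjusted p = 0.218), and Leap2, a peptide that blocks Ghsr, 0 to 1.25 CPM and 0 to 1.14 CPM (adjusted p = 0.13). Of 8 genes of the receptor and its partners 5 were tested, and 1 rose, the G protein subunit Gnaq (median log2 fold change of the 5, 0.84), at 46.3 to 193 CPM with Ngn3 and 20.7 to 91.8 CPM without it. Gna11, a related subunit, had 72.8 to 266 CPM with Ngn3 (adjusted p = 0.0832). Of 5 enzymes that can remove the fatty acid from ghrelin, 1 rose, Notum, an extracellular deacylase at 0 to 8.82 CPM with Ngn3 (adjusted p = 0.0352), and 1 fell, Lypla1, an intracellular thioesterase (log2 fold change -0.83, adjusted p = 0.00713). With 11.1% of all genes called higher and 10.5% lower, single calls in lists of 5 say nothing particular about them.

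Receptors known from ghrelin-secreting cells were measured as a list of 16, of which 15 were tested, 7 rose and 1 fell (median log2 fold change 2.61). Among all genes tested 11.1% rose and 10.5% fell, and the median was 0.07. Ffar2, a receptor for short-chain fatty acids, had 7.11 to 237 CPM with Ngn3 and at most 0.541 CPM without it (log2 fold change 10.001, edgeR adjusted p = 1.46e-10). The calcium-sensing receptor Casr had 0 to 30.8 CPM with Ngn3 and at most 0.241 CPM without it. Ffar3 and Sstr3 also rose, while Adrb1, the adrenergic receptor of stomach ghrelin cells, had 0 to 1.51 CPM with Ngn3 and 0 to 0.289 CPM without it (edgeR adjusted p = 0.0709).

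Of 11 other genes of membrane-bound O-acyltransferases 10 were tested, and 1 rose and 2 fell (median log2 fold change -0.20), shares near the 11.1% and 10.5% over all genes. Mboat2, a lysophospholipid acyltransferase, rose by 1.505 (adjusted p = 0.0293), and its relative Mboat1 fell by 1.24 on the log2 scale (edgeR adjusted p = 0.000435), as did Lpcat4 (-0.71). Porcn, which acylates Wnt proteins, differed by 0.02 (adjusted p = 1.00). With the 3 factors against Ngn3 with MafA, Mboat1 (-1.64, edgeR adjusted p = 0.0417) and Porcn (-1.77, adjusted p = 0.026) were lower, as Mboat4 was. A list of 20 genes covered fatty acid handling, and not only that of the medium-chain fatty acids used by Mboat4. Of these 15 were tested, 3 rose and 5 fell (median -0.07, against 11.1% higher and 10.5% lower over all genes). Carnitine octanoyltransferase (Crot) had 18.2 to 107 CPM with Ngn3 and 89.9 to 219 CPM without it (log2 fold change -1.40, edgeR adjusted p = 4.56e-07). Acsl4, an acyl-CoA synthetase that prefers arachidonate, fell by 1.48 on the log2 scale (adjusted p = 2.66e-05). Acsl6, a related synthetase, rose by 4.16 (adjusted p = 5.09e-05).

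Transcription factors known from mouse mutants to affect ghrelin cells rose with Ngn3 in 11 of 12 cases and none fell (median log2 fold change 7.58). Over all genes tested, 11.1% were called higher and 10.5% lower, with a median of 0.07. Neurod1 had 20.0 to 240 CPM with Ngn3 and at most 0.349 CPM without it (log2 fold change 10.33, edgeR adjusted p = 4.77e-13). Rfx6, Isl1 and Insm1 rose by 10.92, 10.54 and 7.70. The list holds genes whose loss expands ghrelin cells, such as Nkx2-2 and Pax4, and genes that islet cells of other kinds need as well. Foxa2, active in duct cells too, did not pass (adjusted p = 0.632).

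Of 5 markers of epsilon cells, which include Ghrl and Mboat4, all rose with Ngn3. Irs4 had 2.93 to 126 CPM with Ngn3 and 0 to 4.86 CPM without it, Anpep 2.27 to 60.1 and 0 to 0.964 CPM, and Arg1 0 to 42.3 and 0 to 14.3 CPM. Arg1 had the smallest change (log2 fold change 1.88, edgeR adjusted p = 0.00905), and only 6 of 17 samples with Ngn3 lay above all samples without it. With the 3 factors against Ngn3 with MafA, Irs4, Anpep and Arg1 differed by -0.64, -0.50 and 0.58, none past the threshold (edgeR adjusted p of 0.775 or more). Against Ngn3 with Pdx1 these genes differed by -1.70, -1.49 and -1.56, none past it either (edgeR adjusted p of 0.377 or more). Transcripts known from other islet types were counted in the same pools, which cannot show whether the same cells held them. Of 15 other hormone genes tested 10 rose and none fell, as did 3 of 7 beta-cell and 2 of 5 delta-cell markers, while 1 of 6 alpha-cell markers rose and 1 fell, against 11.1% higher and 10.5% lower over all genes. Alpha-cell markers summed to 85.4 to 1069 CPM with Ngn3 and 481 to 2657 CPM without it. Duct markers fell in 5 of 8 cases and none rose. Of 4 acinar markers tested 1 rose and 1 fell, and of 5 markers of mesenchyme, endothelium and immune cells none passed. The summed level of those last markers was 0.674 to 137 CPM with Ngn3 and 3.91 to 19.2 CPM without it.

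Counting set some reads aside as ambiguous, 3.44% to 14.2% of all reads of a library. How many of these fell on Ghrl or Mboat4 was not tested. Gm26982 runs antisense to Ghrl and shares 3 bases with it, and had 1852 counts in all kept libraries, against 274220 of Ghrl. Whether the counting used strand is not given in the sources used here. Annotated genes that overlap Ghrl (Gm44033) and Mboat4 (Gm39158) were not in the count table.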

How the data were processed

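Reads were mapped by the authors to mm10 with GSNAP and assigned to Ensembl genes with HTSeq (0.5.3p3), and they deposited raw counts per gene and library, without normalization. The members and gene lists were chosen with earlier results of these data known. Libraries with over 1000000 counts on genes, under 25% spike-in counts and over 10000 detected genes were kept, as in the study's methods, and technical repeats were summed. Genes seen in 5 or more libraries and varying by over 0.001 (variance of log2(CPM + 1)) numbered 24004 and were tested with edgeR 4.0.16 in R 4.3.3 (TMM, trended dispersion, quasi-likelihood test), in one model of 12 conditions, with Benjamini-Hochberg adjustment and a threshold of 0.05. Passage was tested within the conditions with Ngn3. Where no reference sample had more than 3 counts, folds were taken against 3 counts. Lengths and positions are from GENCODE M21, and 45143 of 46078 genes had a symbol. Named genes were both members, Pcsk1, Ghsr, Mrap2 and Leap2, up to 4 of each list with the lowest adjusted p past the threshold, and the 10 most correlated with each member. Others named were chosen after their values were seen. Same-numbered samples deviated together (r over 0.1) in 6 of 6 pairs of Ngn3 with MafA and with Pdx1 and in 5 of 5 pairs of the 3 factors and Ngn3 with MafA, so numbers pair those samples, and in 3 of 5 pairs of the 3 factors and Ngn3 with Pdx1. The scripts were tested on simulated data. DESeq2 1.42.0, other filters and scalings, the replicate block and left-out replicates were alternatives.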

Additional observations from a re-analysis of the deposited data

Results flagged for a closer look

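The 3 libraries left out for their depth, all from cells with the 3 factors, held Ghrl well above the 3.55 CPM of the highest kept library without Ngn3. In CPM of their total counts, Ghrl was at 724 in repeat 2 of replicate 2 of 6SA cells (175 counts), at 3959 in replicate 3 of 6SA cells (1618 counts) and at 614 in repeat 1 of replicate 2 of WT cells (384 counts). In the kept repeats of the same replicate 2 samples Ghrl was at 116 CPM in 6SA and at 12.3 CPM in WT cells. Mboat4 had 0, 3 and 0 counts in them, where 3 counts are worth 12.4, 7.34 and 4.80 CPM, so the zeros leave room for levels up to these limits.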

How the results depend on the processing

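The rise of Ghrl and of Mboat4 with Ngn3 kept its direction and stayed past the threshold under all 11 alternatives (log2 fold changes of 9.89 to 12.16 and 8.21 to 8.89). Alternatives were DESeq2, RLE size factors, filterByExpr, no gene filter, all libraries, the replicate block, the earliest technical repeat alone, each replicate left out and, for contrasts among cells with Ngn3, only the conditions compared. A run with edgeR's legacy setting off and the spread between repeats without 1 library were chosen after seeing the data. With no gene filter, the 3 factors passed the threshold for Ghrl against Ngn3 with Pdx1 (-1.34) and with MafA (-1.87) and for Mboat4 against Ngn3 with Pdx1 (-2.56), as did passage for Mboat4 (-1.60). With the first technical repeat Mboat4 of the 3 factors against Ngn3 with MafA lost it (-4.05). Leaving out replicates, the ranges were -3.13 to -0.48 and -2.08 to -0.62 for Ghrl of the 3 factors against Ngn3 with MafA and with Pdx1. They were -4.68 to -3.40 and -3.46 to -1.42 for Mboat4, and the calls of Ghrl against Ngn3 with MafA and of Mboat4 against Ngn3 with Pdx1 passed without replicate 3. The range was -0.14 to 1.19 for Ghrl in Ngn3 with MafA against Pdx1, -1.20 to 0.65 for Ghrl and -0.71 to 0.23 for Mboat4 in 6SA against WT, and -0.40 to 0.10 for Ghrl and -2.30 to -1.56 for Mboat4 by passage. For Mboat4 in Ngn3 with MafA against Pdx1 it was 0.27 to 1.98. For the difference between forms in the effect of Ngn3 on Ghrl it was -4.73 to -0.27, with -2.46 for the first repeat and -0.22 for all libraries. For that of Mboat4 it was -0.11 to 0.68, and -0.71 with the first repeat. With all libraries, Ghrl in 6SA against WT turned to 0.37, its value by passage was 1.29, and the 3 factors differed by -0.07 from Ngn3 with Pdx1 and by -0.58 from Ngn3 with MafA, none past the threshold. Mboat4 in the same comparison turned to -0.40 with the replicate block, -0.0081 with only the conditions compared and -0.031 with the legacy setting off. The block, with the replicate number as a term, changed no call. Passage cannot be blocked by replicate or given without replicate 3. Genes called with against without Ngn3 numbered 5168, and 2085 to 5074 with a replicate left out (3139 without replicate 1, 2085 without replicate 2). The correlation of Ghrl and Mboat4 was 0.45 to 0.77 with a replicate left out and 0.45 by deviations from condition means. The cause of these changes was not tested. At these depths a level under 1.01 CPM could go undetected in the shallowest sample with Ngn3.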
